A study of Homo sapiens with 3 samples.

Results

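The HOX genes encode homeodomain transcription factors that give cells their position along the head-to-tail axis. In the human genome they lie in 4 clusters, HOXA on chromosome 7, HOXB on chromosome 17, HOXC on chromosome 12 and HOXD on chromosome 2, and genes at matching places in the clusters form 13 paralogue groups. All 39 protein-coding genes named HOXA, HOXB, HOXC or HOXD with a number were taken by name from the 60880 gene rows of 1 RNA-seq library, and all 39 had a row. The library is wild-type replicate 2 of NCI-H1975, an established human lung adenocarcinoma cell line grown in serum-containing medium. The study set wild-type cells against a derivative resistant to anlotinib, an oral multi-target receptor tyrosine kinase inhibitor, and also knocked down the transcription factor TFAP2A in the resistant cells. The resistant and knockdown cells and the 2 wild-type ATAC-seq samples were not analysed here, so no contrast between cell states was made.

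Within a cluster, low-numbered genes are switched on first and furthest toward the head in the embryo, and high-numbered genes later and closer to the tail, an order known as collinearity. Polycomb proteins keep unused HOX genes silent and Trithorax proteins keep used ones active. Adult tissues and the tumours that arise from them often retain part of the embryonic pattern. In mouse embryos Hoxa5 is needed for normal development of the trachea and lung.

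The library held 25012733 counts. A gene with at least 10 counts was called detected, and levels are given as CPM, counts per 1000000 counts of the library. Here 1 count equals 0.04 CPM and a count of 0 allows a level of up to 0.12 CPM, taken as 3 counts. The intervals are 95% Poisson or binomial intervals of counting error only, because no molecular identifiers that tell PCR copies apart are described and a single library has no replicate spread. CPM is not divided by transcript length, so an order of genes below is an order of reads and not of transcripts. The RNA is from a bulk culture, in which few cells with high expression and many cells with low expression cannot be told apart. Epithelial markers were all detected, from 4961 counts for EPCAM to 132533 for KRT7, and 4 of 6 lung lineage genes were, with 2926 counts for the lineage factor NKX2-1, 1 for SFTPC and 0 for SCGB1A1. The fibroblast list had 2 of 6 genes at or above the minimum, COL1A1 with 7847 counts and COL1A2 with 4104, while COL3A1 had 2 counts and DCN, LUM and PDGFRA were at 0. Of 4 leukocyte markers CD14 had 600 counts and the others 1 to 2, and of 5 endothelial markers CDH5 had 340, VWF 10, TEK 1 and CLDN5 and CD34 0. The part of these genes in the HOX values was not tested.

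The detected HOX genes all lay in HOXA and HOXC, and none lay in HOXB or HOXD. Of the 39 genes, 13 were detected, or 33.3%, whereas 69.7% of the 19056 rows of protein-coding genes were. HOXA had 7 of 11 genes detected (63.6%) and HOXC 6 of 9 (66.7%), against 0 of 10 in HOXB and 0 of 9 in HOXD. The HOXA and HOXC shares are thus near the 69.7% of all protein-coding genes, and the lower share of the 39 comes from HOXB and HOXD. The 13 genes were HOXA3, HOXA5, HOXA6, HOXA7, HOXA9, HOXA10, HOXA13, HOXC4, HOXC6, HOXC8, HOXC9, HOXC10 and HOXC13. Of the other 26 genes, 12 were at 0 and 14 had 1 to 9 counts. At a minimum of 1 count 27 HOX genes passed (69.2%), against 78.8% of protein-coding genes, at 1 CPM 9 passed (23.1%), against 65.6%, and at 50 counts 6 passed (15.4%), against 62.5%. The nearest values around the minimum were 11 counts for HOXA9 above it and 6 counts for HOXB9 and HOXD4 below it. Together the 39 genes took 841 counts, or 33.6 CPM (31.4 to 36.0). HOXC held 503 of these counts, or 59.8% (56.4% to 63.1%), and HOXA held 301, or 35.8% (32.5% to 39.1%). HOXD held 23, or 2.73% (1.74% to 4.08%), and HOXB held 14, or 1.66% (0.913% to 2.78%). HOXB and HOXD together had 37 counts, or 4.40% (3.12% to 6.01%).

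**Figure D1:**
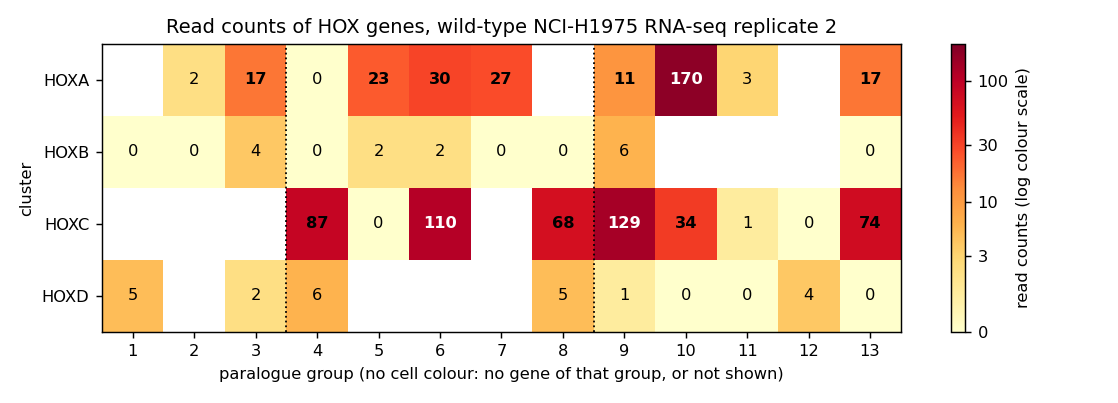
Read counts of HOX genes in wild-type NCI-H1975 RNA-seq replicate 2, by cluster (rows) and paralogue group (columns), with colour on a log scale, bold numbers for genes with at least 10 counts and dotted lines between anterior, central and posterior groups. The HOXA and HOXC rows hold all 13 detected genes, and no gene of the HOXB or HOXD row exceeds 6 counts.

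Every detected HOX gene was low for a detected gene. The median of the 13 was 34 counts, or 1.36 CPM, and the median of 13279 detected protein-coding genes was 660 counts, or 26.4 CPM. No HOX gene reached that median. HOXA10, which had the most HOX reads, lay above 22.3% of detected protein-coding genes, and HOXA9, the detected member with the fewest, lay above 0.565% of them.

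**Figure D2:**
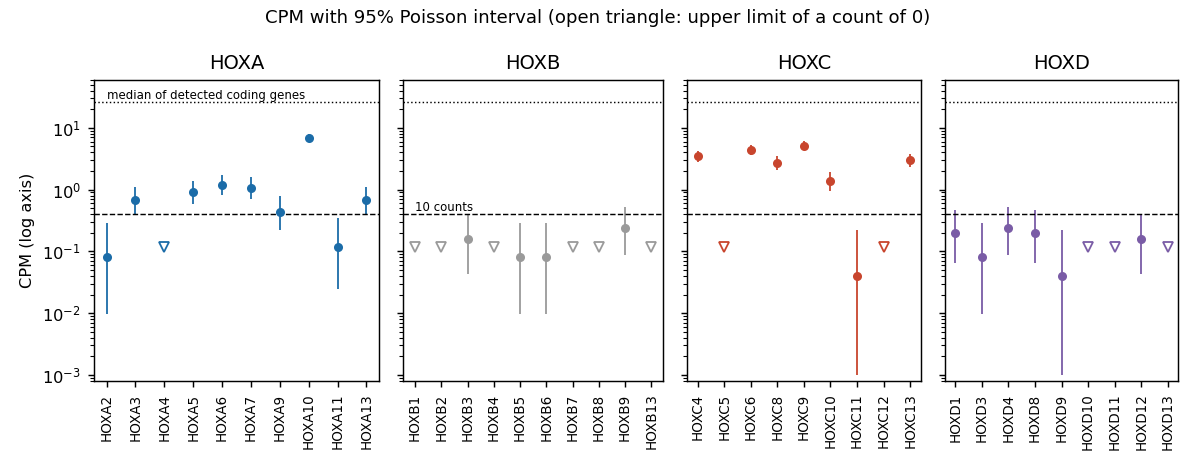
CPM on a log axis for HOX genes, in panels by cluster and in order of paralogue number, with 95% Poisson intervals and open triangles for the 0.12 CPM limit of a count of 0. The dashed line marks 10 counts and the dotted line the 26.4 CPM median of detected protein-coding genes, which no HOX gene plotted reaches.

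In the HOXA cluster, HOXA10 took most of the reads. This posterior gene, known for its role in the uterus and the lumbar spine, had 170 counts (identifier ENSG00000253293.4_3), or 6.80 CPM (5.81 to 7.90), and 20.2% of all HOX reads. It had 5.67 times (3.83 to 8.66) the reads of HOXA6, the next gene of the cluster. A run of neighbouring central genes was detected at lower and similar counts. HOXA5, the lung developmental gene, had 23 counts, or 0.920 CPM (0.583 to 1.38), HOXA6 had 30 counts, or 1.20 CPM (0.809 to 1.71), and HOXA7 had 27 counts, or 1.08 CPM (0.711 to 1.57). The intervals of these 3 genes overlap, so their order was not resolved at this depth. HOXA3, which in mouse is needed to form the thymus and parathyroid, and HOXA13, the gene altered in hand-foot-genital syndrome, had 17 counts each, or 0.680 CPM (0.396 to 1.09). HOXA9, a gene often activated in acute leukaemia, had 11 counts, or 0.440 CPM (0.220 to 0.787), and the intervals of HOXA3, HOXA13 and HOXA9 all reach below the 0.4 CPM that 10 counts equal. HOXA2, which patterns the hindbrain and the branchial arches, had 2 counts, HOXA11, a limb and uterine gene, had 3, and HOXA4 was at 0.

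HOXC reads were less concentrated in 1 gene: HOXC9, its highest, held 25.6% of the cluster's reads (21.9% to 29.7%), where HOXA10 held 56.5% (50.7% to 62.2%) of those of HOXA. HOXC9 is a thoracic-level gene that in the mouse spinal cord sets motor neuron type, and it had 129 counts (identifier ENSG00000180806.4_3), or 5.16 CPM (4.31 to 6.13). HOXC6 had 110 counts, or 4.40 CPM (3.61 to 5.30), so that HOXC9 had 1.17 times its reads (0.902 to 1.53), an interval that includes equal counts. HOXC4 had 87 counts, or 3.48 CPM (2.79 to 4.29). HOXC13, the posterior gene required for hair and nail keratin expression, had 74 counts, or 2.96 CPM (2.32 to 3.71), and HOXC8, another thoracic gene, had 68 counts, or 2.72 CPM (2.11 to 3.45). HOXC10, a lumbar-level gene, was lower at 34 counts, or 1.36 CPM (0.941 to 1.90). Between these, HOXC5 and HOXC12 were at 0 and HOXC11 had 1 count. Detection in HOXC was interrupted across HOXC11 and HOXC12, with HOXC13 at the posterior end detected again. HOXC5 overlaps HOXC4 and HOXC6, so its separate count of 0 is uncertain.

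The HOXB cluster was close to silent. HOXB9 had 6 counts, HOXB3 had 4, and HOXB5 and HOXB6 had 2 each. HOXB1, a hindbrain gene, HOXB2, HOXB4, known for expanding blood stem cells when forced on, HOXB7, HOXB8 and HOXB13, the prostate and hindgut gene, were at 0. In HOXD, HOXD4 had 6 counts, HOXD1 and HOXD8 had 5 each, HOXD12 had 4, HOXD3 had 2 and HOXD9 had 1. HOXD10, HOXD11 and HOXD13, genes of the limb and its digits, were at 0. The 6 counts of HOXB9 and of HOXD4 equal 0.240 CPM (0.0880 to 0.522). Ratios of the first to the next gene were 1.5 (0.356 to 7.23) for HOXB9 to HOXB3 and 1.2 (0.305 to 4.97) for HOXD4 to HOXD1, too wide to give an order.

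Read by paralogue group, 9 of the 13 groups had a detected gene. Groups 1, 2, 11 and 12 had none, and these 4 groups together had no gene above 5 counts. Groups 6, 9, 10 and 13 were detected in both HOXA and HOXC. In groups 3, 5 and 7 the single detected gene was in HOXA, and in groups 4 and 8 it was in HOXC, although HOXA has no group 8 gene and HOXC no group 3 or 7 gene. Group 10 held 24.3% of HOX reads (21.4% to 27.3%), group 9 held 17.5% (15.0% to 20.2%), group 6 held 16.9% (14.4% to 19.6%), group 4 held 11.1% (9.02% to 13.4%) and group 13 held 10.8% (8.80% to 13.1%). The intervals of groups 9 and 6 overlap, as do those of groups 4 and 13. Paralogues differed by cluster within a group: in group 10 HOXA10 had 170 counts and HOXC10 had 34, in group 9 HOXC9 had 129 and HOXA9 had 11, and in group 13 HOXC13 had 74 and HOXA13 had 17.

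**Figure D3:**
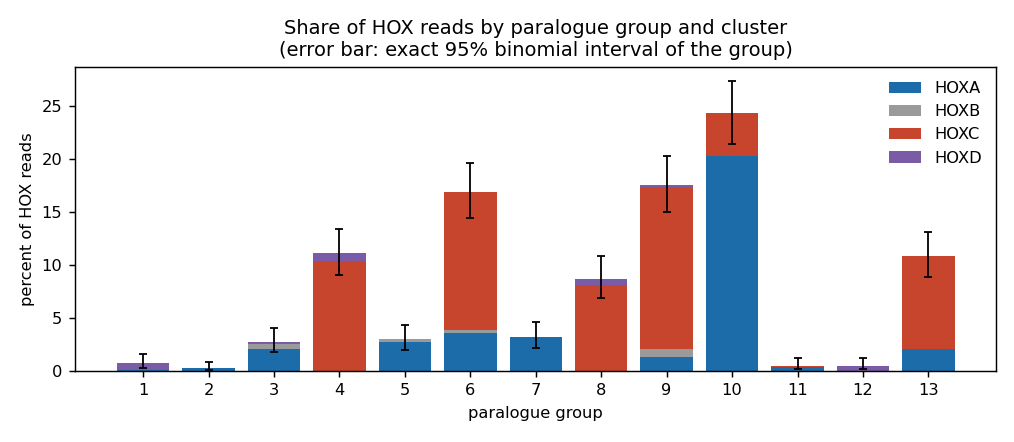
Percent of the 841 HOX reads in each paralogue group (x axis), with bars stacked by cluster and error bars for the exact 95% binomial interval of the group. Group 10 is mostly HOXA10, groups 4, 6, 8, 9 and 13 are mostly HOXC, and groups 1, 2, 11 and 12 are near 0.

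By position along the axis, anterior groups 1 to 3 had 1 of 8 genes detected and 3.69% of reads (2.52% to 5.19%). Central groups 4 to 8 had 6 of 15 genes detected and 42.8% of reads (39.4% to 46.2%), and posterior groups 9 to 13 had 6 of 16 detected and 53.5% (50.1% to 56.9%). The order of the central and posterior shares depended on HOXA10. Without it the posterior share was 41.7% and the central share 53.7%. In HOXA the posterior genes held 201 counts and the central genes 80, and in HOXC the posterior genes held 238 and the central genes 265.

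Some HOX genes overlap other genes in the RefSeq annotation, and their separate counts are uncertain because the treatment of shared and antisense reads is not given. HOXC4, HOXC5 and HOXC6 overlap each other, HOXA3 overlaps HOXA4, HOXA5 and HOXA6, HOXB3 overlaps HOXB4, HOXD3 overlaps HOXD4, and HOXA9 and HOXA10 overlap the read-through gene HOXA10-HOXA9, for which no row was matched by name. That makes 13 HOX genes, 7 of them detected. Of the detected genes only HOXA13, HOXC8 and HOXC9 overlap no other RefSeq gene of any kind. Among the genes free of coding overlap, 2 of 5 in HOXA (HOXA7 and HOXA13) and 4 of 6 in HOXC were detected, against 0 of 8 in HOXB and 0 of 7 in HOXD. Of all protein-coding genes 69.7% were detected, so 2 of 5 in HOXA is below that share and 4 of 6 in HOXC is near it. Among the HOX genes free of coding overlap the HOXC share of reads was 80.3% and the HOXA share 13.1%.

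Non-coding genes of the clusters were mostly under the minimum, and 2 of the 3 detected lay in HOXD, where no HOX gene was detected. Of 18 long non-coding genes with a row, 3 passed, or 16.7%. The share over all long non-coding rows was not computed, so a low share is not shown to be particular to the clusters. The 9 HOXD genes together had 23 counts, fewer than HAGLR, which lies between HOXD3 and HOXD1, overlaps HOXD1 and had 64 counts, or 2.56 CPM (1.97 to 3.27). HOXD-AS2 also lies in HOXD and had 15 counts, or 0.600 CPM (0.336 to 0.989). HOXC-AS2, between HOXC9 and HOXC10, had 23 counts, or 0.920 CPM (0.583 to 1.38). HOTTIP, known to bring WDR5 to the posterior HOXA genes, had 9 counts, and HOTAIR, a HOXC transcript known for binding Polycomb proteins, had 6. HOXA-AS3 and HOXA10-AS had 5 each, and HOXA-AS2, HOXA11-AS, HOXC-AS1 and HOXC-AS3 had 2 each. HOXC13-AS had 1, and HOTAIRM1, HAGLROS and the 4 HOXB antisense genes were at 0. Rows of the cluster microRNA genes MIR10B, MIR196A1, MIR196A2 and MIR615 had 1, 0, 0 and 0 counts, which says nothing of the short mature forms.

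Most of the 24 other coding genes nearest the clusters had far more reads than the HOX genes. SKAP1, TTLL6, EVX1 and EVX2, each directly beside a cluster, did not. Of the 24 nearest other protein-coding genes, 3 on each side of each cluster, 21 were detected, with a median of 1581 counts over the 24, beside the 69.7% of all protein-coding genes that were detected. These genes were chosen after their counts were seen. A list of 14 flanking genes shares most of its members with the 24. It also holds GTSF1, on chromosome 12 and at 0, and PRAC1 and PRAC2, which lie inside HOXB. Of the 14, 8 were detected, or 57.1%, which is below that 69.7%, and 4 were at 0. At the anterior end of HOXA stood SKAP2 with 2592 counts, and beyond HOXA13 the homeobox gene EVX1 had 28 counts and HIBADH had 2812. HOXB was flanked by SKAP1 at 0 and TTLL6 at 1 count, and next to these by SNX11 with 449 and CALCOCO2 with 1230. Inside HOXB, before HOXB13, PRAC1 and PRAC2, genes of prostate and colon, were at 0. On either side of HOXC were CALCOCO1 with 2477 counts and SMUG1 with 914. HOXD was bordered by MTX2 with 563 counts at HOXD1, and at HOXD13 by EVX2, a homeobox gene, with 1 count and then LNPK with 632. Several flanking genes are relatives of each other, remnants of the duplications that made the clusters. Of these, the heterochromatin protein genes CBX3, CBX1 and CBX5 beside HOXA, HOXB and HOXC had 4209, 1932 and 4502 counts. The ATP synthase genes ATP5MC1, ATP5MC2 and ATP5MC3 beside HOXB, HOXC and HOXD had 1130, 5598 and 2700. The adaptor genes SKAP2 and SKAP1 differed, with 2592 and 0. Processed pseudogenes of such genes can share their reads, so single values are uncertain.

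**Figure D4:**
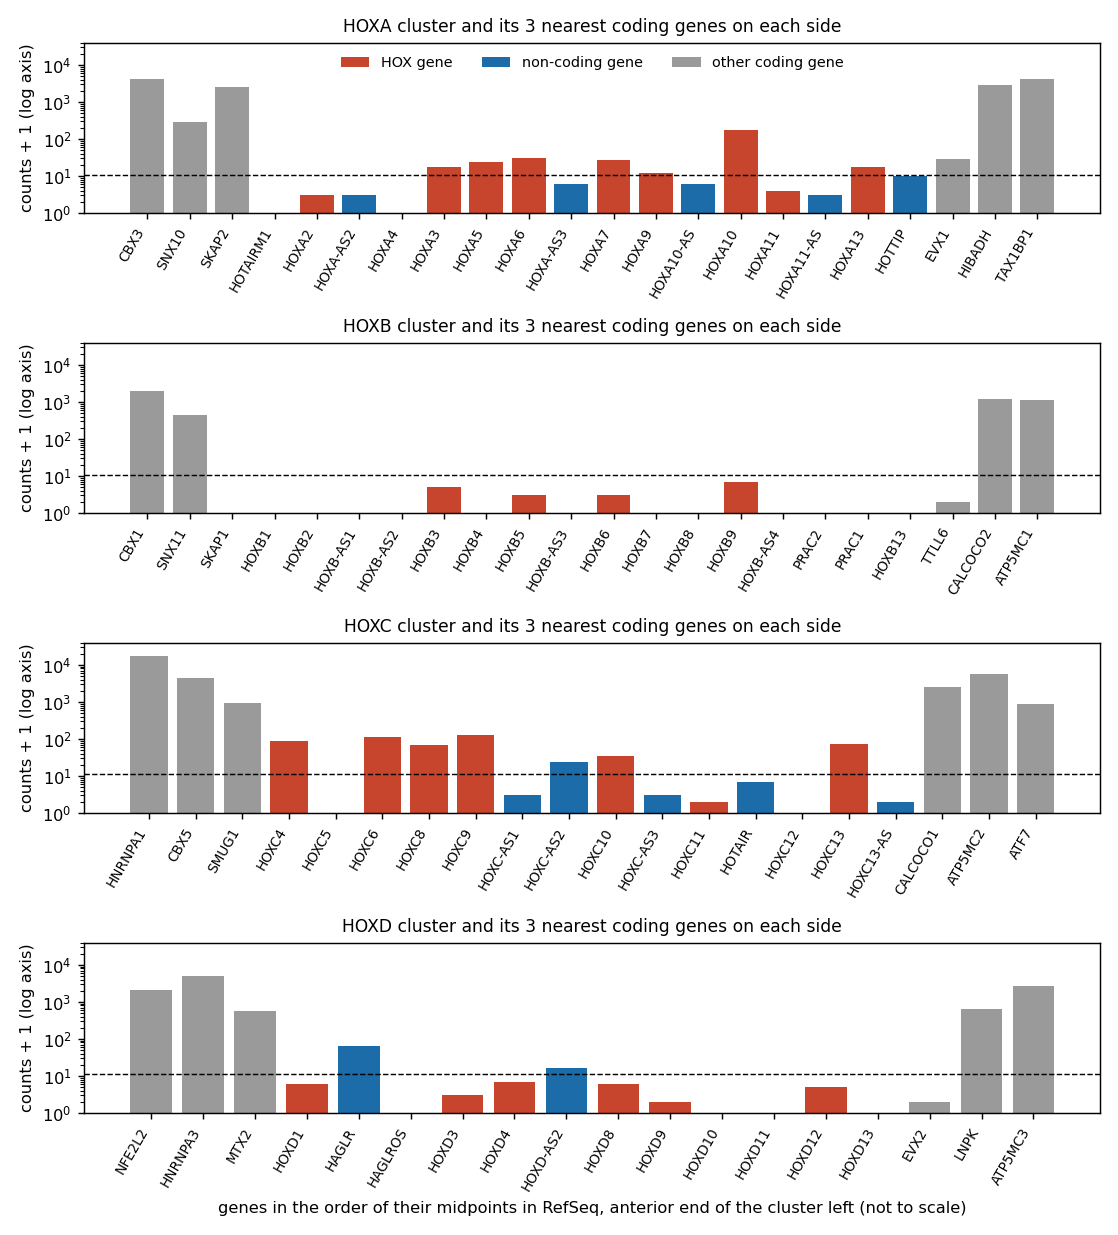
Counts plus 1 on a log axis for HOX genes, long non-coding genes and the 3 nearest other coding genes on each side, in RefSeq order with the anterior end at the left and not to scale. The dashed line marks 10 counts. Bars of the outer coding genes reach 283 to 17061 counts except SKAP1, TTLL6, EVX1 and EVX2, and in HOXD the non-coding gene HAGLR stands above every HOX gene.

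Promoter sequences were taken from RefSeq (GRCh38.p14, 250 bases before to 50 after the annotated start), which is not the hg19 build named for the counts. Of the 39 genes 20 had an entry. Genes without one included HOXA5, HOXC6, HOXC8 to HOXC13, HOXD9 and all HOXB genes except HOXB1. HOXC4 and HOXC5 share one start and one sequence, which leaves 19. That sequence was counted with the detected genes for HOXC4, although HOXC5 was at 0. Its detected label, in the group 4 example and in the medians below, therefore holds for HOXC4 only. Paralogues of groups 10 and 4 are shown as examples of a detected gene beside others under the minimum. These are HOXA10 with 170 counts beside HOXD10 at 0, and HOXC4 with 87 counts beside HOXA4 at 0 and HOXD4 at 6. They are written 5′ to 3′ on the strand of the gene, with CpG, the dinucleotide that DNA methylation acts on, in capitals.
HOXA10 (chr7:27179812-27180111, - strand): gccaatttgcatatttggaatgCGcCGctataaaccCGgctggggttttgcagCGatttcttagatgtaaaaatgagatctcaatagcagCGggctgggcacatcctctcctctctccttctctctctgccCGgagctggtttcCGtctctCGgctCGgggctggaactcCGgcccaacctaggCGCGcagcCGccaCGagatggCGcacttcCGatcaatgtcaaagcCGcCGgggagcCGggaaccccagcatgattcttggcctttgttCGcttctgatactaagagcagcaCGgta
HOXD10 (chr2:176116528-176116827, + strand): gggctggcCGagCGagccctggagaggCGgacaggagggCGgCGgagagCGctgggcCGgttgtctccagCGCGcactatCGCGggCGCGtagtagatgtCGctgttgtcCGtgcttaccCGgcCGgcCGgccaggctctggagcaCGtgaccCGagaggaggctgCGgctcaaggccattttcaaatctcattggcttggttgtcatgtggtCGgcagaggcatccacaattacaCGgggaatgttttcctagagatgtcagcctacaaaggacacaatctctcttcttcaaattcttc
HOXC4 (chr12:54016638-54016937, + strand): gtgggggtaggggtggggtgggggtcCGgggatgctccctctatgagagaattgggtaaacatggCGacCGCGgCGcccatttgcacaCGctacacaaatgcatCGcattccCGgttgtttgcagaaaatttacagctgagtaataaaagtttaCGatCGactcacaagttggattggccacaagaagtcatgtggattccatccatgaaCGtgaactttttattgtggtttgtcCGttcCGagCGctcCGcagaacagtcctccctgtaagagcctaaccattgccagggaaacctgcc
HOXA4 (chr7:27130708-27131007, - strand): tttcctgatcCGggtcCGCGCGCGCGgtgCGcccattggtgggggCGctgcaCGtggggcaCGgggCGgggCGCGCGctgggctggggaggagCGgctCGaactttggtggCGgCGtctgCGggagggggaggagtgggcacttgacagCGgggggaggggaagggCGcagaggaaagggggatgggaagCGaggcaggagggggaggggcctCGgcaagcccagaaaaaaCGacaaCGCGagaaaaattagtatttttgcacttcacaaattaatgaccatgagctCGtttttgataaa
HOXD4 (chr2:176151300-176151599, + strand): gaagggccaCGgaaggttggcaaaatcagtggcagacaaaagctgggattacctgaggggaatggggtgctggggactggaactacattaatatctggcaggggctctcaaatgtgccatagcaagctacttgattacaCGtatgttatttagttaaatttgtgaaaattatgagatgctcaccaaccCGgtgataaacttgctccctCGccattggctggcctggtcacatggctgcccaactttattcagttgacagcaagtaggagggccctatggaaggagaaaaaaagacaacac
CpG number did not follow detection in these 5 sequences. HOXA10 has 21 CpG and HOXD10 has 23, and HOXC4 has 15, between 27 in HOXA4 and 4 in HOXD4. Groups 3 and 13 also have such pairs, whose sequences are not printed. HOXA3, detected, has 15 CpG and HOXD3 has 25, while HOXA13, detected, has 44 and HOXD13 has 24. Over the 19 sequences the median was 22 CpG (15 to 44) for 7 detected genes and 23.5 (4 to 36) for 12 genes under the minimum. Over 27305 RefSeq promoters, a set not limited to protein-coding genes and also used for the motifs below, the median was 14. HOXA13, with 17 counts, had the most at 44. Both strands were searched for 3 motifs. The AP-2 consensus GCCNNNGGC, relevant since the study concerns TFAP2A, occurred in 6 of the 19 (HOXA13, HOXD1, HOXD4, HOXD8, HOXD11 and HOXD13) and in 23.0% of all promoters. The composite HOX and PBX motif TGATNNAT occurred in 3 (HOXA2, HOXB1 and HOXD11) and in 7.60% of all. The TATA box letters TATAAA occurred in 4 (HOXA3, HOXA9, HOXA10 and HOXD13) and in 12.0%. A match of letters is no evidence of binding, and the annotated start may not be the one used in these cells.

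The partners and regulators of HOX proteins were read from lists of their own, beside the 13 of 39 HOX genes and the 69.7% of all protein-coding genes detected. The PBX, MEIS and PKNOX proteins, part of the TALE class of homeodomain proteins, bind DNA together with HOX proteins. Of these 9 genes 8 were detected, or 88.9%. The TGIF and IRX genes of the same class were counted with the other homeobox genes below. PBX2 had 1416 counts, or 56.6 CPM (53.7 to 59.6), PBX3 had 510 and PBX4 had 292. Among the MEIS genes, which pair with PBX, MEIS2 had 505 counts, MEIS3 had 433 and MEIS1 had 104, and of the related PKNOX genes PKNOX1 had 380 and PKNOX2 had 1. All 23 listed regulators, mostly of the Polycomb and Trithorax groups, were detected, from 223 counts for RNF2 to 3174 for DOT1L. DOT1L and CTCF, the latter with 1937 counts, are of neither group. The histone methyltransferase EZH2 of Polycomb had 1416 counts, and KMT2A, its Trithorax counterpart at HOX genes, had 2441. Retinoic acid is a known inducer of anterior HOX genes, and 9 of 17 genes of its pathway were detected, or 52.9%. The receptors RARG, RXRA and RARA had 6057, 3703 and 1831 counts, and RARB, which retinoic acid is known to induce, had 1. Of other genes known to be induced by it, CRABP2 had 1898 counts, STRA6 had 668 and DHRS3 had 589, while CYP26A1 had 3. The degrading enzyme CYP26B1 had 939 and the synthesising enzyme ALDH1A3 had 196, while ALDH1A1 was at 0 and ALDH1A2 had 7.

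Of the HOX genes 33.3% were detected, against 49 of 85 listed homeobox genes outside the clusters, or 57.6%. Both shares were below the 69.7% of all protein-coding genes. The 85 are a selection that leaves out the cofactors above, the EVX genes and the ParaHox and CDX genes. The highest of the 85 were CUX1 with 5509 counts, the chromatin gene ADNP with 3311 and NKX2-1 with 2926. HOXA10 had fewer reads than 22 of the 85, and 14 of them reached the median of detected protein-coding genes, which no HOX gene did. The 6 ParaHox and CDX genes, GSX1, GSX2, PDX1, CDX1, CDX2 and CDX4, the closest relatives of the HOX clusters and known in gut, pancreas and brain, were all at 0. No test was made of these differences, because there is 1 library and its genes are not replicates.

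**Figure D5:**
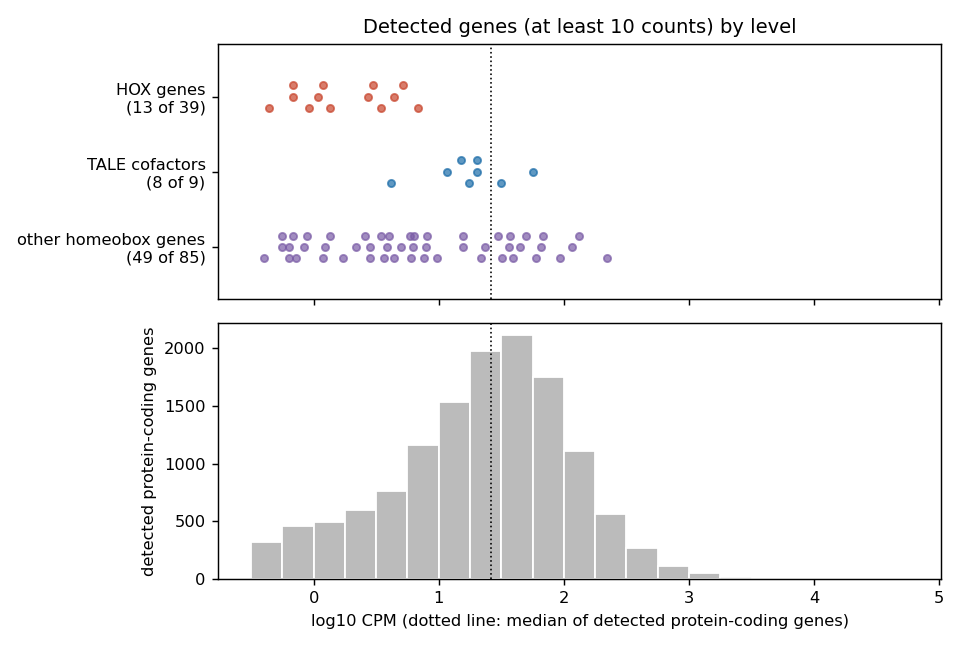
Levels (log10 CPM) of detected HOX genes, TALE cofactors and other homeobox genes in the upper panel, 1 point per gene, above the histogram of 13279 detected protein-coding genes. All 13 HOX points lie left of the dotted line at 26.4 CPM, while points of the other 2 lists lie on both sides of it.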

How the data were processed

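RNA-seq counts were available for 1 sample, wild-type NCI-H1975 replicate 2. Per the labels' protocols, Trizol RNA (1 ug in total) went into an NEBNext directional library. The deposited values are raw whole-number read counts per gene, not normalised by the authors. Tools in the submitters' processing notes are deepTools (3.3.0), MACS2 (2.1.1.20160309), featureCounts, STAR and Bowtie2 (2.3.3.1), with the build hg19 and no role for each. The annotation release, the strand setting and how shared reads were counted are not given in these notes.

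Identifiers were matched without version to current symbols, and 56373 of 60880 rows, with 99.8% of counts, received one. Gene type, overlaps and gene order came from RefSeq (GRCh38.p14), by name. CPM used the total of all rows. Levels have exact (Garwood) 95% Poisson intervals, shares exact (Clopper-Pearson) binomial intervals and ratios exact conditional intervals. With 1 library no p-value was computed. Members, lists and thresholds were chosen with earlier results of these data known. Named genes are the HOX genes, every cluster non-coding gene with a row, the cofactors, and the highest or lowest members of other lists. Of the HOX genes and cofactors, 2 are not reported here one by one and enter only the totals. The genes nearest each cluster and genes named to explain a list were chosen after their counts were seen. Of the list entries, HOXA11-AS1 is an older name of HOXA11-AS, and MIR10A, MIR196B and HOXA10-HOXA9 had no row matched by name. Alternatives were other minimums, thinning to 50%, other library totals, and leaving out HOXA10 or overlapping genes. The interval code was tested on simulated counts. The software was SciPy 1.17.1, pandas 2.3.3, Matplotlib 3.10.9 and NumPy 2.4.6 under Python 3.11.15.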

Additional observations from a re-analysis of the deposited data

How the results depend on the processing

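The number of detected HOX genes was 13 at a minimum of 10 counts, 27 at 1 count, 6 at 50 counts, 9 at 1 CPM and 11 after random thinning of the reads to 50%. At 50 counts 62.5% of protein-coding genes passed, at 1 count 78.8% and at 1 CPM 65.6%. At 1 count 10 of 11 HOXA, 4 of 10 HOXB, 7 of 9 HOXC and 6 of 9 HOXD genes passed, and at 50 counts 1 HOXA and 5 HOXC genes. Without the 13 genes that overlap another coding gene, an alternative chosen after seeing the data, 6 genes were detected, and the HOXA and HOXC shares became 13.1% and 80.3%. Leaving out HOXA10 made the HOXA share 19.5% and the HOXC share 75.0%. It made the shares of groups 4, 6, 8, 9, 10 and 13 equal to 13.9%, 21.2%, 10.9%, 21.9%, 5.07% and 13.6%, and the central and posterior shares 53.7% and 41.7%. Its 170 counts leave the HOXA, group 10, posterior and overall totals. After thinning the group 6 share was 19.8%, and the 4 cluster shares, the 3 position shares, the 4 ratios and the other 12 group shares stayed inside their intervals. Leaving mitochondrial genes out of the total multiplied every CPM by 1.06 and leaving out the 10 highest genes by 1.08, and all 13 levels stayed inside their intervals. Counts per kilobase of coding length were planned but not run, because no hg19 annotation or transcript lengths were at hand. With 25012733 counts, a gene under 0.4 CPM falls below the minimum. No paired analysis was possible because a single RNA-seq library was at hand.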
